A study of Mus musculus with 2 samples.

Results

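The heat shock protein, J-protein and chaperonin genes were described in round spermatids of the mouse, haploid cells formed by meiosis and not yet elongated. Members were chosen by gene symbol: all Hspa, Hspb, Hspd, Hspe, Hsph and Hsp90 genes, the Dnaja, Dnajb and Dnajc genes, Tcp1 and the Cct genes of the cytosolic chaperonin, and the heat shock factor genes, without Hspb11 and Hsf2bp. This gave 88 of the 23234 genes measured. RNA-seq values came from 2 libraries of C57BL/6 round spermatids, 1 from mice labelled as deficient for both Epc1 and Epc2, whose proteins belong to the NuA4/TIP60 histone acetyltransferase, and 1 from wild-type mice. The first of these carries the genotype label Epc-dKO. The alleles, any Cre driver, the age of the mice, the number of animals behind each library and the way the spermatids were isolated were not given in the sources used here. Values are FPKM, fragment numbers per unit of transcript length, scaled to each library's mapped total. The read depth is unknown, and because each genotype has a single library, differences lack any replicate error and were not tested.

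Chaperones bind unfolded or newly made proteins and help them reach or keep their folded state. HSP70 proteins do so in cycles of ATP use, which J-proteins (the DNAJ family, also called HSP40) start by delivering the client and which nucleotide exchange factors such as the HSP110 proteins end. HSP90 acts later on a narrower set of clients, small heat shock proteins hold unfolded proteins without using ATP, and chaperonins enclose their clients in a ring. Heat shock factors are the transcription factors that bind heat shock elements and switch on many of these genes under stress. Male germ cells carry testis forms of several families, among them the HSP70 proteins HSPA2, which male mice need to complete meiosis, and HSPA1L, which appears in haploid spermatids.

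Some facts of the libraries bear on every value below. Epc1 had an FPKM of 13.6 in the library labelled Epc-dKO and 11.4 in the wild-type library, and Epc2 had 10.5 and 7.12 in the same order. Neither gene was lower under the Epc-dKO label. The alleles are not known here, and a gene-level FPKM does not show whether a part of the gene is missing, so these values do not check the genotype label. All 12 round spermatid markers were expressed in both libraries, with summed FPKM of 804 in the library labelled Epc-dKO and 821 in the wild-type library. All 10 genes listed as late spermatid markers had a log2 ratio above 0, and 6 of them passed the 2-fold rule given below. Their summed FPKM was 1978 in the library labelled Epc-dKO and 728 in the wild-type library. Each was also present in the wild-type library of round spermatids, at 8.02 to 180, so these RNAs do not count late spermatids. The 12 spermatogonial markers, of which 10 were expressed and 2 fell, summed to 18.6 in the library labelled Epc-dKO and 40.7 in the wild-type library. In bulk RNA, fewer cells of a type and less RNA per cell cannot be told apart.

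Most chaperone genes lay close to the same level in both libraries, and 4 rose: Hspa1l, the J-protein genes Dnajb8 and Dnajc21, and the chaperonin-like gene Cct8l1. None fell. Differences are given as the log2 ratio of FPKM + 1, the library labelled Epc-dKO over wild type, and the words rose and fell are kept for ratios of 2-fold or more. The added 1 understates the change of low genes. A gene counts as expressed where the mean of its 2 FPKM values was at least 1. Of the 88 members 78 were expressed, and 4 of the 78 (5.13%) rose, against 2.75% of all 10438 expressed genes. Of all expressed genes 1.88% fell, against 0 of the 78 members. The median log2 ratio of the members was 0.01, with quartiles of -0.22 and 0.34, and that of all expressed genes was -0.05, with quartiles of -0.34 and 0.24. The 88 genes summed to an FPKM of 3631 in the library labelled Epc-dKO and 3795 in the wild-type library, which is 1.83% and 1.96% of the table.

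The split depended on the scale. On the TPM scale both libraries are brought to the same larger sum, and the added 1 weighs less. The minimum of 1 was kept, so lower genes also counted as expressed. These were 15151 genes and 81 members, against 10438 and 78 in the main setting. Of the 81 members 5 rose and 1, Hspd1, fell, against 3.60% and 6.96% of the 15151 genes. Dnajc25 was the added rise. A pseudocount of 0.5 gave the same 5 and 1 members, against 3.31% and 3.49% of all expressed genes. A pseudocount of 0.1 gave 6 rises, with Dnajb7 added, and the fall of Hspd1, against 4.15% and 6.25%. Leaving the 100 highest genes out of the library sums brought Dnajc21 to 0.98, just inside the rule. That setting left 3 rises, against 2.62% of the genes expressed under it. At a looser 1.5-fold rule 9 of the 78 members (11.5%) were higher, against 8.02% of all expressed genes, and 5 (6.41%) were lower, against 10.8%.

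**Figure D1:**
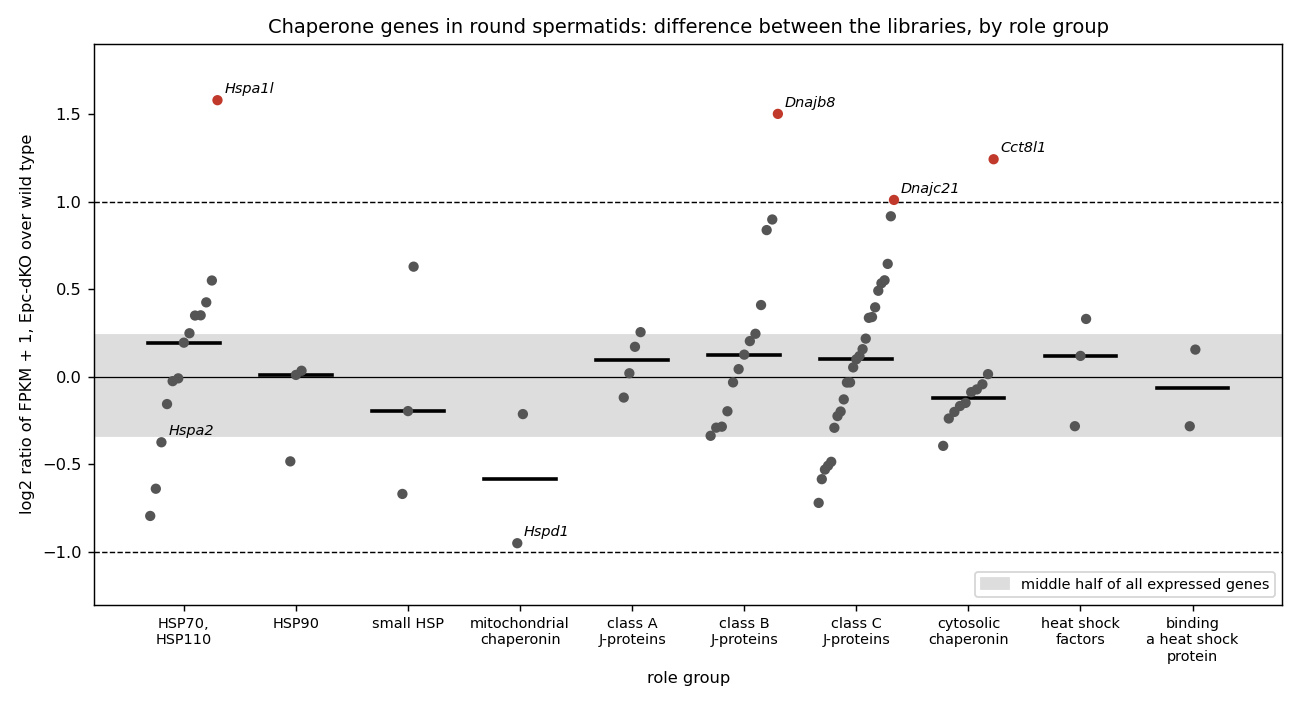
Log2 ratio of FPKM + 1, library labelled Epc-dKO over wild-type library, for the 78 expressed members by role group. Each point is 1 gene, thick bars are group medians, dashed lines mark 2-fold, the grey band holds the middle 50% of all expressed genes, and red points are the 4 members that rose.

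Near the threshold, Dnajc21 (log2 ratio 1.01) and Cct8l1 (1.24) were the members just past it, and Hspd1 (-0.95) and Dnajc25 (0.92) the ones just short of it. The 10 members below the minimum were Hspa12b, the small heat shock protein genes Hspb1, Hspb2, Hspb3 and Hspb8, the J-protein genes Dnajc6, Dnajc12 and Dnajc22, and the heat shock factor genes Hsf3 and Hsf4. Their FPKM reached at most 0.838 in the library labelled Epc-dKO and 0.896 in the wild-type library, and Hsf3 was listed at 0 in both.

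Promoter sequences are shown for the 4 genes that rose, for Hspa2, and for Hspa1a and Hspe1 as examples of heat shock elements in this family. RefSeq windows on GRCm38.p6 were matched by symbol for 71 of the 88 members, and the values themselves were made on mm9. Each line gives the 250 bases before the annotated start, read 5′ to 3′ on the gene's strand. Capitals mark the heat shock element letters GAANNTTC, which read the same on both strands, and any extension of it by a further unit, either NNGAA after it or TTCNN before it. The extended forms are each other's reverse complement and contain the shorter motif. The windows are chr17:34972453-34972702 (plus strand) for Hspa1l, chr17:34972157-34972406 (minus strand) for Hspa1a, chr12:76404120-76404369 (plus strand) for Hspa2, chr6:88222018-88222267 (plus strand) for Dnajb8, chr5:25515817-25516066 (plus strand) for Cct8l1, chr15:10470517-10470766 (minus strand) for Dnajc21 and chr1:55087898-55088147 (plus strand) for Hspe1.
Hspa1l: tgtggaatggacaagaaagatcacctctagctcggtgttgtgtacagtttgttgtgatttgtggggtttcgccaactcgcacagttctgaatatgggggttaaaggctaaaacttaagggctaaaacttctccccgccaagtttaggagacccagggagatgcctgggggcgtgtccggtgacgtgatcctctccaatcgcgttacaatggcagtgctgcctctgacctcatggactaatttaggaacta
Hspa1a: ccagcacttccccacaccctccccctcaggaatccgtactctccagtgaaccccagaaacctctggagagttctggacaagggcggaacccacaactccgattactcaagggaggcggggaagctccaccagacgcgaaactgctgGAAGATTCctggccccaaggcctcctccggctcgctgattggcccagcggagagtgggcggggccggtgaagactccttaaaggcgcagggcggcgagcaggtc
Hspa2: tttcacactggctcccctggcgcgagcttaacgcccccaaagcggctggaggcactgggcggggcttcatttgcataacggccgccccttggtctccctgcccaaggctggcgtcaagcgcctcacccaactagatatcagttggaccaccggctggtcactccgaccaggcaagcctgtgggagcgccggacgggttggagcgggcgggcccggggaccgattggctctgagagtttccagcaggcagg
Dnajb8: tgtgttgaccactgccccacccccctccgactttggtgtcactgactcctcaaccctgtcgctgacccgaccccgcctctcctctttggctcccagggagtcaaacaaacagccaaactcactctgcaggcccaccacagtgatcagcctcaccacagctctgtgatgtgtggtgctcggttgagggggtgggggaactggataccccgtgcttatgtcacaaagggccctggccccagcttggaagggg
Cct8l1: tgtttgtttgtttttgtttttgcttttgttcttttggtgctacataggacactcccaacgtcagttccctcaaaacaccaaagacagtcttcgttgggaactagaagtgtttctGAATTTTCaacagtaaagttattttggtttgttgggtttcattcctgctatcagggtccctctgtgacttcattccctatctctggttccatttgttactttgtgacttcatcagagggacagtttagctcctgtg
Dnajc21: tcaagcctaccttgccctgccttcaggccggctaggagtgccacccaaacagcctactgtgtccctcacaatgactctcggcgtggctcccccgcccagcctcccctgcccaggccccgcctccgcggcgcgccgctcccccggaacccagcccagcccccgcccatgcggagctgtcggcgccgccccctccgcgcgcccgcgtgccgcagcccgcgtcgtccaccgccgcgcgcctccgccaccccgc
Hspe1: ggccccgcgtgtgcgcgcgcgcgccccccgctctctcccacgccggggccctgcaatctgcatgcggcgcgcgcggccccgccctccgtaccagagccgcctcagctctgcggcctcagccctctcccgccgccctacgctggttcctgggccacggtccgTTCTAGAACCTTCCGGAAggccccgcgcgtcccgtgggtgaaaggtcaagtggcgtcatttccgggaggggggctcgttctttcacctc

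The letters GAANNTTC occurred in 13 of the 71 members with a window (18.3%), against 7.73% of the 27025 genes in the table, and an extended element in 3 of 71, Dnajb6, Hspd1 and Hspe1, against 0.514% of genes. Counted by window, the shorter motif was in 15.6% of 90 member windows and 6.69% of all 32851 windows. Of the 4 genes that rose, Cct8l1 had 1 match and Hspa1l, Dnajb8 and Dnajc21 had none. Hspa1l and the stress gene Hspa1a start 547 bases apart on opposite strands, and the match lies in the window on the Hspa1a side. The cAMP response element letters TGACGTCA were found in 1 of the 71 members, Dnajc27, and in 1.77% of all genes. A match is a run of letters and says nothing of binding, and a window without one says only that these letters are not in it.

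Among the HSP70 genes, Hspa1l rose, and Hspa2 was the most abundant in both libraries. Hspa1l had an FPKM of 87.4 in the library labelled Epc-dKO and 28.6 in the wild-type library, an FPKM ratio of 3.06 and a log2 ratio of 1.58. This was the largest rise of the 78 expressed members, and it took the gene to the rank of 436 among all genes in the library labelled Epc-dKO, against 1548 in the wild-type library. Hspa2 had an FPKM of 447 in the library labelled Epc-dKO and 579 in the wild-type library, a log2 ratio of -0.37 within 2-fold, and ranked 21 and 14 among all genes in the same order. Hspa2 was thus 5.11 times as abundant as Hspa1l per length in the library labelled Epc-dKO and 20.3 times in the wild-type library. Hspa2 is overlapped by the long noncoding RNA gene 4930426I24Rik, so some of its reads may be shared. No other annotated RefSeq gene overlaps Hspa1l, and its neighbour Lsm2, a gene of an RNA-binding ring, had an FPKM of 24.7 in the library labelled Epc-dKO and 23.7 in the wild-type library. The rise of Hspa1l went with the higher late spermatid markers given above, whose part in it was not tested.

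The close stress-inducible relatives of Hspa1l were low and stayed within 2-fold. Hspa1a had an FPKM of 3.04 in the library labelled Epc-dKO and 2.01 in the wild-type library (log2 ratio 0.43), and Hspa1b had 4.37 and 2.67 (0.55). These 2 genes are near-identical, so reads can pass between them. Hspa1l stood 28.7 times above Hspa1a in the library labelled Epc-dKO and 14.2 times above it in the wild-type library.

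Constitutive HSP70 genes went in different directions, each within 2-fold. Hspa8, the main HSP70 of the somatic cytosol, had an FPKM of 27.1 in the library labelled Epc-dKO and 47.7 in the wild-type library, and its log2 ratio of -0.79 was the lowest of the family. Its many processed pseudogenes can share its reads. Hspa5, the HSP70 of the endoplasmic reticulum, had 132 in the library labelled Epc-dKO and 133 in the wild-type library, while Hspa9, its mitochondrial counterpart, had 91.0 and 76.4. Hspa14, a ribosome-associated HSP70, had 2.86 and 5.02 (log2 ratio -0.64), and Hspa13, of the endoplasmic reticulum, had 4.42 and 3.25.

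The HSP110 genes, which encode nucleotide exchange factors, stayed within 2-fold, with log2 ratios of -0.02 for Hspa4l, 0.19 for Hspa4 and 0.35 for Hsph1. Hspa4l, a form abundant in testis, had an FPKM of 203 in the library labelled Epc-dKO and 207 in the wild-type library, which made it the second HSP70-related gene by level. Its widely expressed relative Hspa4 had 47.0 and 41.0, and the heat-inducible Hsph1 had 7.07 and 5.32. Of the 14 HSP70 and HSP110 genes 13 were expressed, 1 rose and none fell, against 2.75% and 1.88% of all expressed genes. The median log2 ratio of the family was 0.19, or 0.06 on the TPM scale.

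**Figure D2:**
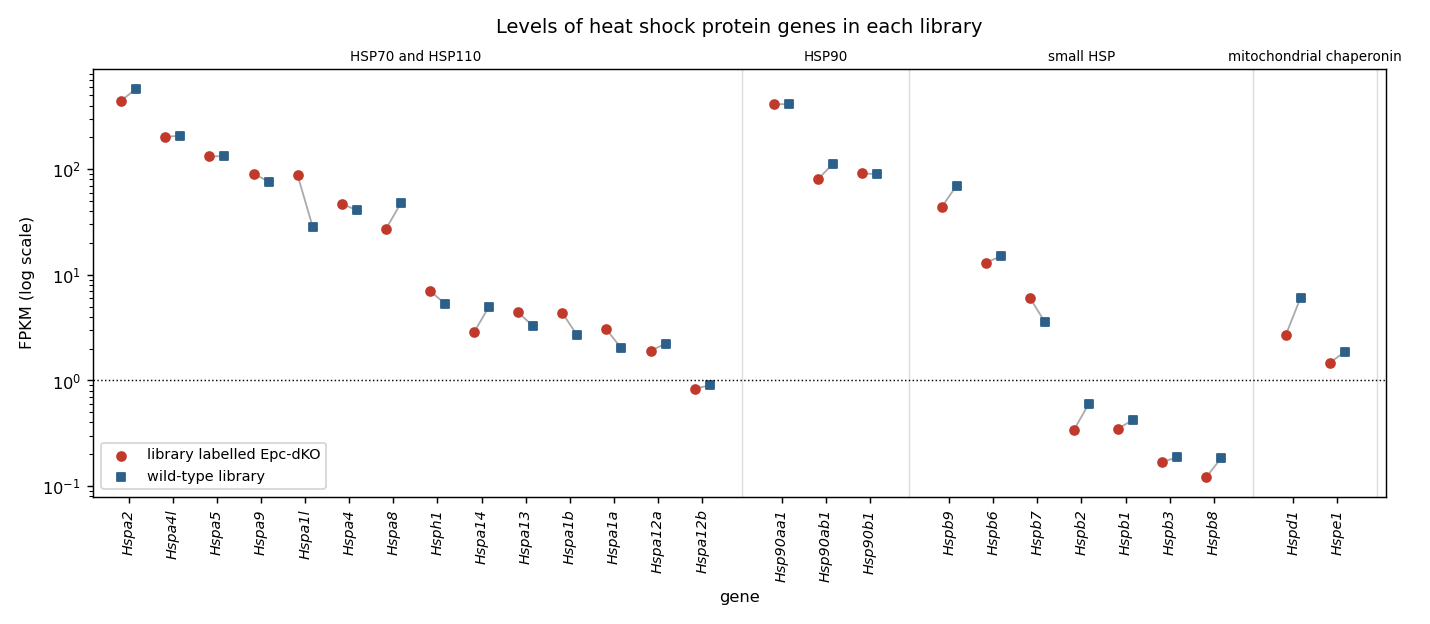
FPKM on a log scale of the 26 genes of HSP70, HSP110, HSP90, small heat shock proteins and mitochondrial chaperonin, sorted by mean level within each family; red circles are the library labelled Epc-dKO, blue squares the wild-type library, and the dotted line marks an FPKM of 1. Hspa1l stands at 87.4 in the library labelled Epc-dKO and 28.6 in the wild-type library, the widest gap among the abundant genes.

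The make-up of HSP70 transcripts per length followed from these values. Hspa2 made up 42.2% of the summed FPKM of the 14 genes in the library labelled Epc-dKO and 51.1% in the wild-type library. Hspa1l made up 8.25% in the library labelled Epc-dKO and 2.52% in the wild-type library, and Hspa8 2.56% and 4.21%. The sums themselves were 1059 in the library labelled Epc-dKO and 1134 in the wild-type library.

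**Figure D3:**
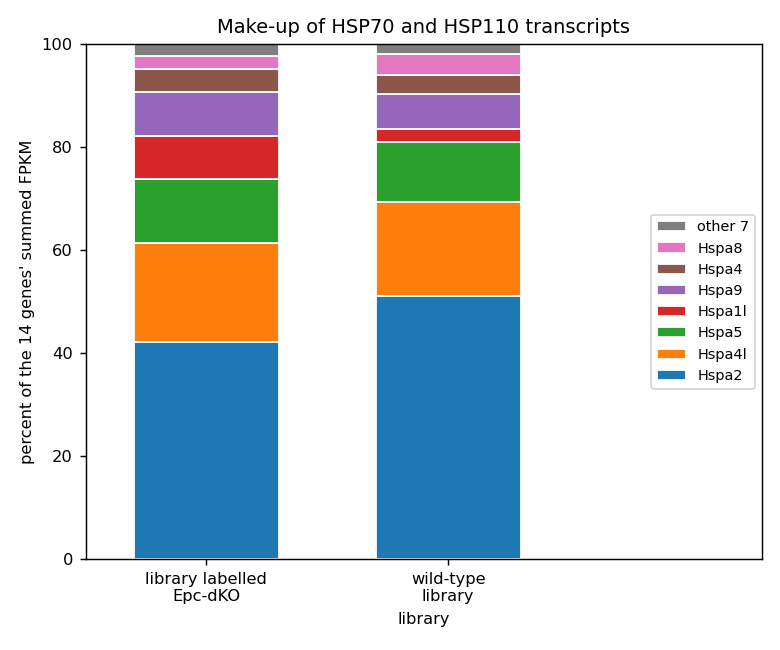
Percent of the summed FPKM of the 14 HSP70 and HSP110 genes held by each of 7 genes and by the other 7 together, in the library labelled Epc-dKO (left) and the wild-type library (right). The Hspa1l segment covers 8.25% on the left and 2.52% on the right, and the Hspa2 segment 42.2% and 51.1%.

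None of the 3 HSP90 genes passed the rule, where 2.75% of all expressed genes rose and 1.88% fell. Hsp90aa1, the inducible cytosolic form that mouse spermatogenesis requires, had an FPKM of 415 in the library labelled Epc-dKO and 412 in the wild-type library, and ranked 29 and 27 among all genes. Hsp90ab1, the constitutive cytosolic form, had 80.7 in the library labelled Epc-dKO and 113 in the wild-type library (log2 ratio -0.48). Hsp90b1, the form of the endoplasmic reticulum, had 91.7 and 89.5. Both libraries therefore held more Hsp90aa1 than Hsp90ab1 per length. Hsp90aa1 made up 70.6% of the HSP90 sum in the library labelled Epc-dKO and 67.0% in the wild-type library.

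Small heat shock protein genes were mostly low, and none passed the rule, where 2.75% of all expressed genes rose and 1.88% fell. Hspb9, a testis form, had the highest level, with an FPKM of 43.7 in the library labelled Epc-dKO and 70.1 in the wild-type library, a log2 ratio of -0.67. Hspb6, known from muscle, had 13.0 and 15.0, and Hspb7, known from heart, had 6.07 and 3.57 (0.63). The stress-inducible Hspb1 lay at 0.349 in the library labelled Epc-dKO and 0.425 in the wild-type library. Of the 7 genes 3 were expressed, so their median of -0.20 rests on few values.

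Both genes of the mitochondrial chaperonin, the ring protein gene Hspd1 and its lid gene Hspe1, had a log2 ratio below 0. Over all expressed genes 45.6% were above 0. Hspd1 had an FPKM of 2.67 in the library labelled Epc-dKO and 6.10 in the wild-type library, a log2 ratio of -0.95, the lowest of all expressed members and just inside the rule. It passed the rule at -1.06 with a pseudocount of 0.5, at -1.16 with a pseudocount of 0.1 and at -1.16 on the TPM scale. Hspe1, which shares a divergent promoter with it, had 1.47 and 1.87 (log2 ratio -0.21). Both have processed pseudogenes that can share reads. The spermatogonial markers were also lower in the library labelled Epc-dKO, and their part in these values was not tested.

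Class A J-proteins, the form closest to the bacterial DnaJ, had the narrowest range of log2 ratios of the J-protein classes. The class is also the smallest, with 4 expressed genes against 13 in class B and 25 in class C. A range tends to widen with the number of genes. The FPKM of the 4 genes ran between 7.13 and 27.1 in the library labelled Epc-dKO, against 7.02 and 28.1 in the wild-type library, and their log2 ratios lay between -0.12 and 0.25. Dnaja4 was the highest by mean level, with 25.8 and 28.1, and Dnaja2, a partner of cytosolic HSP70, had 27.1 and 22.5. Dnaja1, known for a role in mouse spermatogenesis, had 19.9 in the library labelled Epc-dKO and 17.6 in the wild-type library.

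Class B J-protein genes held the most abundant J-proteins, and 1 of the 13 rose, against 2.75% of all expressed genes. Dnajb8, a testis form related to the anti-aggregation chaperone Dnajb6, had an FPKM of 31.2 in the library labelled Epc-dKO and 10.4 in the wild-type library, a log2 ratio of 1.501. Dnajb6 itself had 120 in the library labelled Epc-dKO and 122 in the wild-type library and was the highest J-protein gene. Dnajb3, a J-protein of mouse spermatids, had 100.2 and 84.3, and Dnajb7, another testis form, had 10.7 and 5.30 (log2 ratio 0.90, or 1.01 with a pseudocount of 0.1). Relative to Dnajb6, Dnajb8 stood at 0.261 in the library labelled Epc-dKO and 0.0849 in the wild-type library. Thus the testis relatives of Dnajb6 lay higher in the library labelled Epc-dKO by values that reached 2-fold on the FPKM + 1 scale for Dnajb8 alone.

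Other class B genes stayed within 2-fold. Dnajb4, a heat-inducible cytosolic form, had an FPKM of 29.9 in the library labelled Epc-dKO and 16.3 in the wild-type library (log2 ratio 0.84), whereas Dnajb2, known from neurons, had 59.5 and 75.4, the lowest ratio of the class at -0.34. Dnajb13, a component of the radial spokes of the sperm axoneme, had 46.9 and 42.9. Dnajb7 lies within the span of Xpnpep3, a peptidase gene with an FPKM of 2.10 in the library labelled Epc-dKO and 2.15 in the wild-type library. Dnajb3 lies within the Ugt1a cluster, whose 2 genes checked, Ugt1a2 and Ugt1a7c, were at most 0.212 FPKM. The strand setting of the authors' counting is not given, so reads of overlapping genes on opposite strands may not have been kept apart.

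Class C J-proteins share only the J-domain and serve varied tasks. Of the 28 genes 25 were expressed, 1 rose and 0 fell, against 2.75% and 1.88% of all expressed genes. The median log2 ratio of the class was 0.10. Dnajc21, whose human counterpart acts in ribosome assembly, had an FPKM of 19.9 in the library labelled Epc-dKO and 9.40 in the wild-type library, a log2 ratio of 1.01 that lay at the edge of the rule. Dnajc25, a membrane J-protein, had 3.49 and 1.38, an FPKM ratio of 2.53 that the added 1 reduced to a log2 ratio of 0.92. It passed the rule at 1.09 with a pseudocount of 0.5 and at 1.20 on the TPM scale.

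The most abundant class C genes did not move together. Dnajc27, which carries a Rab-like GTPase domain, had an FPKM of 42.7 in the library labelled Epc-dKO and 71.0 in the wild-type library, the lowest ratio of the class at -0.72. Dnajc7, which links HSP70 to HSP90, had 52.9 and 40.0 (0.40), and Dnajc2, a ribosome-associated J-protein, had 29.1 and 42.5 (-0.53). The cysteine string proteins, chaperones of secretory vesicles, differed by form. The testis forms Dnajc5b and Dnajc5g had 43.7 and 47.6 FPKM where the label is Epc-dKO, against 34.3 and 30.1 in the wild-type library. The neuronal form Dnajc5 had 5.37 in the library labelled Epc-dKO and 8.55 in the wild-type library. Dnajc5g was therefore 8.87 times as abundant as Dnajc5 per length in the library labelled Epc-dKO and 3.52 times in the wild-type library, although each gene stayed within 2-fold.

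**Figure D4:**
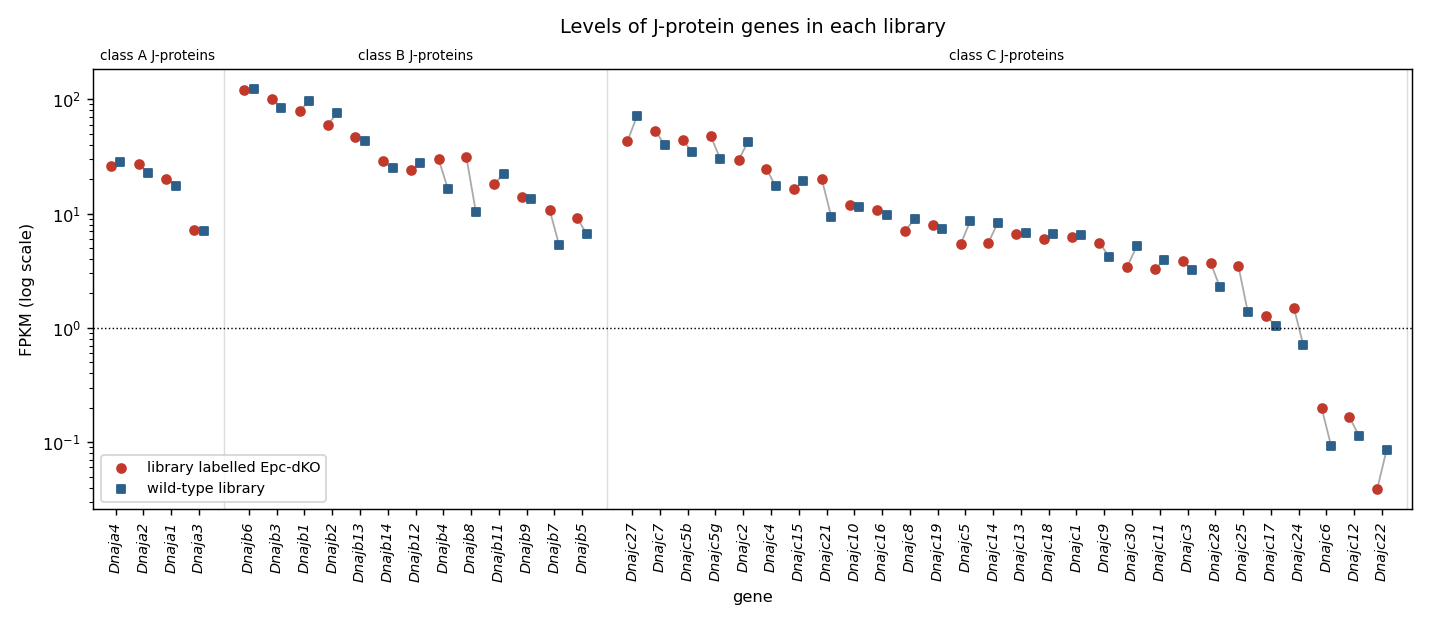
FPKM on a log scale of the 45 J-protein genes, sorted by mean level within classes A, B and C; red circles are the library labelled Epc-dKO, blue squares the wild-type library, and the dotted line marks an FPKM of 1. Dnajb8 stands at 31.2 in the library labelled Epc-dKO and 10.4 in the wild-type library, and Dnajc21 at 19.9 and 9.40.

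The cytosolic chaperonin, which folds actin and tubulin, was expressed throughout. Of its 10 genes only Cct8l1 rose, against 2.75% of all expressed genes. Tcp1, the alpha subunit, had an FPKM of 334 in the library labelled Epc-dKO and 355 in the wild-type library, far above the other subunits. Cct7, the eta subunit, was next with 108 and 128. The 9 subunit genes, among them both forms of the zeta subunit, had medians of 57.7 in the library labelled Epc-dKO and 59.4 in the wild-type library. Of the 9 log2 ratios 8 were below 0, and all lay between -0.39, for the delta subunit gene Cct4, and 0.02, for Cct6a. Over all expressed genes 45.6% were above 0, with a median of -0.05.

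Testis forms of chaperonin genes went different ways. Cct6b, the testis zeta subunit, had an FPKM of 52.2 in the library labelled Epc-dKO and 57.9 in the wild-type library, and exceeded the common form Cct6a 3.91 times in the library labelled Epc-dKO and 4.39 times in the wild-type library. Cct8l1, related to the theta subunit, rose to 14.5 in the library labelled Epc-dKO, against 5.56 in the wild-type library (log2 ratio 1.24). Cct8 itself had 28.2 and 29.7, so Cct8l1 stood at 0.515 of its level in the library labelled Epc-dKO and 0.187 in the wild-type library. Reads that match both Cct8 and Cct8l1 cannot be assigned with certainty.

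**Figure D5:**
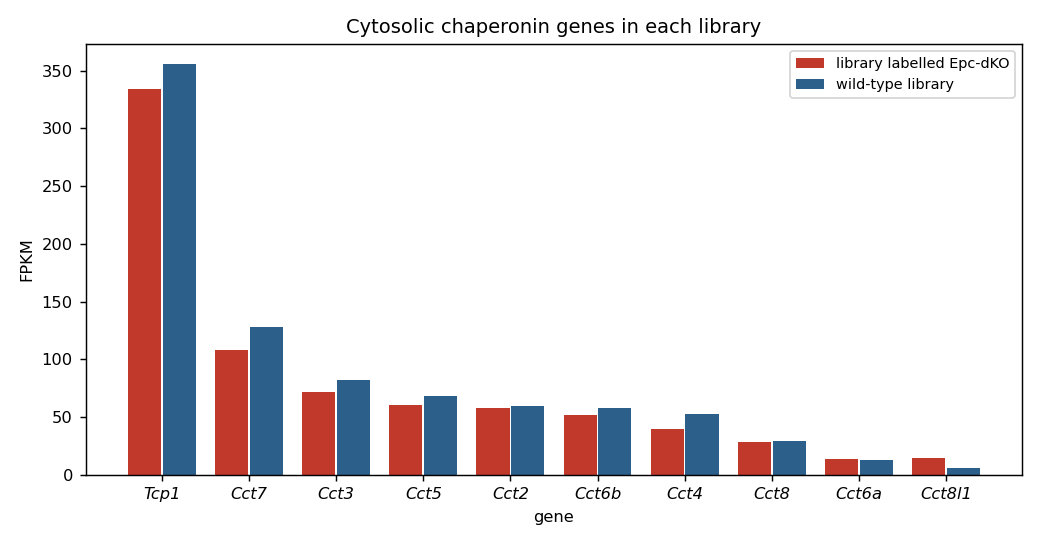
FPKM of the 10 cytosolic chaperonin genes, as bars from 0, sorted by mean level; red bars are the library labelled Epc-dKO and blue bars the wild-type library. Cct8l1 is at 14.5 in the library labelled Epc-dKO and 5.56 in the wild-type library, and the other 9 genes lie within 2-fold.

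The 3 expressed heat shock factor genes stayed within 2-fold, where 2.75% of all expressed genes rose and 1.88% fell. Hsf5, a testis member of the family, was the highest, with an FPKM of 68.4 in the library labelled Epc-dKO and 62.9 in the wild-type library. Hsf1, the main factor of the stress response, had 16.2 and 19.96 (log2 ratio -0.28), and Hsf2, which acts with it in germ cells, had 15.1 and 11.8 (0.33). Of the 2 genes named for binding a heat shock protein, the HSP70 exchange factor gene Hspbp1 had 13.5 and 16.6, and Hspbap1 had 1.32 and 1.08.

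Grouped by use rather than family, 3 of the 4 rises lay among testis forms. Of 14 members listed for testis or germ cell expression, all were expressed, 3 rose (Hspa1l, Dnajb8 and Cct8l1) and none fell. Over all expressed genes 2.75% rose and 1.88% fell. The list was chosen with earlier results of these data known. It leaves out Hsp90aa1 (log2 ratio 0.01) and Dnaja1 (0.17), described above for roles in spermatogenesis. The median log2 ratio of the 14 was 0.29, in a range from -0.67, for Hspb9, to 1.58. The group was not uniform, since 10 ratios were above 0 and 4 below, and 45.6% of all expressed genes were above 0. Of 14 members that heat induces in somatic cells, 12 were expressed and none passed the rule, with a median of -0.01. The 10 members of the endoplasmic reticulum and the 10 of mitochondria held 0 genes past the rule, with medians of 0.05 and -0.09. The late spermatid markers were higher beside the rises of Hspa1l, Dnajb8 and Cct8l1, and their part in these was not tested.

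Of the 4 genes that rose 3 have a single coding exon, in a grouping made after the values were seen. Of the 10 expressed members with 1 coding exon (Cct8l1, Dnajb3, Dnajb7, Dnajb8, Dnajc30, Hspa1a, Hspa1b, Hspa1l, Hspa2 and Hspb9), 3 rose and 0 fell, with a median of 0.49. Of the 67 with several coding exons 1 rose, Dnajc21, with a median of -0.02. Among expressed genes with an entry for coding exons, 4.73% of 507 with 1 coding exon and 1.82% of 8166 with several rose. In the same order 2.96% and 1.09% fell, with medians of -0.01 and -0.06. No entry was found for 1765 expressed genes and for 1 expressed member, Cct6a, so these shares leave them out. Over all 10438 expressed genes 2.75% rose and 1.88% fell. Hspa2, Dnajc30 and Hspb9 have 1 coding exon and log2 ratios below 0 (-0.37, -0.49 and -0.67). The expressed members lie on 18 chromosomes, none of them on X or Y.

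Partner genes of the chaperone cycle, taken from a list of 55, showed none past the rule on the FPKM + 1 scale. Over all expressed genes 2.75% rose and 1.88% fell. Of the list 53 were in the table and 44 were expressed, with a median log2 ratio of -0.09, 20 above 0 and 24 below. All expressed genes had a median of -0.05, with 45.6% above 0. The lowest ratios, of genes chosen after their values were seen, were -0.79 for the HSP90 immunophilin gene Fkbp5 and the HSP70 exchange factor gene Bag3, -0.77 for the HSP90 adaptor gene Cdc37, -0.75 for the prefoldin gene Pfdn2 and -0.74 for Fkbp6, and the highest was 0.62 for the testis calreticulin gene Calr3. Fkbp5 had an FPKM of 1.61 in the library labelled Epc-dKO and 3.51 in the wild-type library, and Pfdn2 had 1.05 and 2.45. Both low genes were more than 2-fold apart before 1 was added. By group the medians were -0.19 for HSP70 cofactors, -0.09 for HSP90 cofactors, -0.13 for chaperonin cofactors and prefoldin, and 0.28 for lectin chaperones. Among HSP70 cofactors the most abundant were Bag6, with an FPKM of 556 in the library labelled Epc-dKO and 592 in the wild-type library, and the exchange factor gene Bag5, with 136 in both. Among HSP90 cofactors the immunophilin gene Fkbp4 had 180 in the library labelled Epc-dKO and 199 in the wild-type library, and the HSP70 to HSP90 adaptor gene Stip1 had 41.5 and 40.8. Pdcl2, a testis phosducin-like partner of the chaperonin, had 46.6 and 51.0, and the prefoldin gene Pfdn5 had 29.0 and 25.4. Among lectin chaperones Clgn, a testis calnexin needed for sperm function, was at 296 in the library labelled Epc-dKO and 314 in the wild-type library, and Calr, calreticulin, at 165 and 130.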

How the data were processed

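The 2 libraries were directional RNA-seq libraries of total RNA, amplified with 15 PCR cycles, per the labels' protocols. The authors deposited FPKM per gene, 1 column per library, made with Cufflinks 2.2.1 on mm9, per the submitters' processing notes. The aligner, annotation, strand setting and any scaling between libraries were not given in the sources used here. Of 23235 rows 1 named no gene and was left out; 0 symbols were duplicated. FPKM holds no counts, the depth is unknown, and PCR duplicates could not be assessed, so no interval, detection limit or test between genotypes was computed.

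The log2 ratio used a pseudocount of 1, the expressed genes a minimum mean FPKM of 1, and the rule was 2-fold. The members and lists were chosen with earlier results of these data known. Genes named are Epc1, Epc2, Hspa1l, Hspa2, members past 2-fold or nearest to it, the 2 most abundant and the most changed of each group, testis forms, and the 2 most abundant cofactors of each kind; other members were chosen after their values were seen. Coding exons came from GENCODE M21 and promoters from RefSeq, both on GRCm38. The code for the 2-fold rule was checked on simulated data. Alternatives were pseudocounts of 0.1 and 0.5, no minimum or 5, 3 rescalings, a 1.5-fold and a 4-fold rule, and leaving out the most changed member. Python 3.11.15, NumPy 2.4.6, pandas 2.3.3 and Matplotlib 3.10.9 were used.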

Additional observations from a re-analysis of the deposited data

How the results depend on the processing

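The 3 largest rises, Hspa1l, Dnajb8 and Cct8l1, stayed past 2-fold with both other pseudocounts and all 3 rescalings, and no gene ratio past the rule changed sign. A minimum sets only which genes are counted and cannot move a gene's ratio, so those settings do not bear on these genes. Hspa1l and Hspa2 kept their side of the 2-fold rule under the same pseudocounts and rescalings. With pseudocounts of 0.1 and 0.5 and on the TPM scale 1 member (Hspd1) fell, against 6.25%, 3.49% and 6.96% of the genes counted. A 1.5-fold rule gave 9 higher and 5 lower, against 8.02% and 10.8% of all expressed genes. A 4-fold rule gave 0 higher and 0 lower, against 0.728% and 0.565%. Of 200 group medians under alternatives 170 moved by 0.1 or less. On the TPM scale the medians were 0.062 for HSP70 and HSP110, -0.75 for the mitochondrial chaperonin, -1.04 for spermatogonia, -0.50 for Sertoli, -0.92 for peritubular and -0.42 for endothelial, blood and immune markers. With a pseudocount of 0.1 the mitochondrial chaperonin stood at -0.74, spermatogonia at -1.06 and peritubular markers at -0.81; with 0.5 spermatogonia stood at -0.89. With a minimum of 5, which removes genes, they were 0.093 for HSP70 and HSP110, -0.032 for class C, 0.10 for mitochondrial members, -0.28 for heat shock protein binders, -0.43 for small heat shock proteins, -0.22 for HSP90 cofactors, 0.18 for chaperonin cofactors, -0.44 for Leydig, -0.63 for Sertoli and -0.92 for spermatogonial markers; the mitochondrial chaperonin, peritubular and endothelial lists gave no value. Without a minimum, which adds genes near 0, HSP70 and HSP110 stood at 0.093, heat shock factors at 0, small heat shock proteins at -0.079 and Sertoli markers at -0.10. Without their most changed member the groups stood at 0.093 (HSP70 and HSP110), -0.081 (heat shock factors), 0.020 (mitochondrial), -0.21 (mitochondrial chaperonin), 0.16 (binders) and 0.22 (small heat shock proteins). The TPM scale kept the minimum of 1, so lower genes were counted too. It took in 15151 genes and 81 members, against 10438 and 78 in the main setting. The pseudocounts left the counted genes unchanged. How far the added genes or the added 1 moved each median was not tested. No paired analysis was possible because the comparison has a single library on each side. Depth is unknown, which limits what can be said of low genes.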

Other observations

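Markers of somatic cells were low in both libraries. Of 12 Sertoli cell markers 11 were in the table and 2 were expressed, with a median log2 ratio of -0.36, and their FPKM summed to 8.60 in the library labelled Epc-dKO and 12.9 in the wild-type library; Fshr was listed at 0 in the wild-type library. The 8 Leydig cell markers summed to 25.4 in the library labelled Epc-dKO and 32.9 in the wild-type library, with a median of -0.03; 7 were expressed and 1 fell, Insl3, with 6.79 in the library labelled Epc-dKO and 14.9 in the wild-type library. The 9 peritubular and stromal markers summed to 7.92 and 16.1 in the same order, with a median of -0.63. Among endothelial, blood and immune markers only Vwf, at -0.12, passed the minimum, the list summed to 5.57 in the library labelled Epc-dKO and 6.86 in the wild-type library, and Hbb-b1 and Hba-a1 were listed at 0 in both. The 14 spermatocyte markers, of which 13 were expressed, summed to 363 in the library labelled Epc-dKO and 377 in the wild-type library, with a median of -0.06.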
